A study of Drosophila melanogaster with 2 samples.

Results

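The 10 genes described here are factors and products of the mesoderm, heart and muscles of the Drosophila embryo: twi, tin, bap, Mef2, how, nau, lbe, lbl, slou and Mhc. They were chosen by symbol, out of 18164 annotated genes on the 6 chromosome arms, and each peak with a summit in a gene or within 2000 bp of it was assigned to that gene. The binding of Xrp1, a basic leucine zipper (bZIP) transcription factor of stress and cell competition responses, had been mapped by ChIP-seq, the sequencing of DNA that an antibody precipitates with a protein, in embryos of Drosophila melanogaster aged 8 to 24 h. The flies were of the strain Xrp1-GFP, with an insertion at Xrp1 that produces an eGFP fusion protein, and an antibody to GFP pulled down the chromatin. There was 1 group, of 2 biological replicates with 1 technical replicate each, and peak lists were the data analysed. The precipitate came from all tissues of the embryo together, so a peak at a muscle gene does not tell in which cells Xrp1 was bound there, and no other genotype, stage or antibody was analysed here. The notes deposited with the samples name a possible control experiment, which was not analysed here.

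The mesoderm is the embryonic layer that forms the heart, the gut muscles, the fat body and the body wall muscles. A cascade of transcription factors divides it: Twist sets up the layer, Tinman and Bagpipe divide its dorsal part into heart and gut muscle, and Mef2 switches on the genes of muscle differentiation. Identity factors such as Nautilus, the Ladybird proteins and Slouch then give single muscle fibres and heart cells their shape and position, and Mhc encodes the myosin heavy chain with which the finished muscles contract.

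Xrp1 peaks of the conservative list, which keeps only peaks that rank alike in both replicates, lay at 6 of the 10 genes: tin, Mef2, how, nau, lbl and twi. The genes bap, lbe, slou and Mhc had none. The count is a description, since 7000 of the 18164 annotated genes (38.5%) and 5790 of 13945 protein-coding genes (41.5%) also had a conservative peak by the same rule, and the 95% Wilson interval of 6 of 10 ran from 31.3% to 83.2%. The 6 genes held 16 conservative peaks, and tin and Mef2 each had 1 peak among the strongest of the embryo, at ranks 101 and 81 of 7534. The summit of this Mef2 peak also lay inside the neighbouring gene Pal1, 164 bp upstream of a Pal1 start site. Peak signals are the authors' values, of unstated scaling. They are used here to rank and describe peaks within a list, and where the replicates' signals are set side by side or as a ratio, the ratio holds any difference in scaling between them.

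Sequence around the summits is shown for 5 of these peaks, so that a reader can see the bound DNA of tin, how, nau and lbl, with the peak signal beside each. Each window holds 101 bases, 50 to each side of the summit, on the plus strand of dm6, read from the RefSeq Release 6 assembly. Capitals mark the words searched for that were present: CATATG, a form of the E-box that Twist binds, in the tin window, and CTCTC, the reverse complement of the GAGAG word of GAGA factor, in the lbl window.
tin, chr3R:21378718-21378818, signal 1006: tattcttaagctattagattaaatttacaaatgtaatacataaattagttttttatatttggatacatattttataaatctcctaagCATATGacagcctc
how, chr3R:22049234-22049334, signal 294: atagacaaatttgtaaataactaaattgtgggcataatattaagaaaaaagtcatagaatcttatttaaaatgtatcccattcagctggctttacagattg
nau, chr3R:23714021-23714121, signal 176: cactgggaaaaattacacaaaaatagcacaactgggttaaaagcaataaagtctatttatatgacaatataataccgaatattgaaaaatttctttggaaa
lbl, chr3R:21420110-21420210, signal 137: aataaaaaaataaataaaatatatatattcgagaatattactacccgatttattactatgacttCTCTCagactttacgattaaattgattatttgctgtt
how, chr3R:22066643-22066743, signal 64.9: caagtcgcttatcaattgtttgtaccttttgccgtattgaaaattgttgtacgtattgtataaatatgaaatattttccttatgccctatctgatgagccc

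The windows printed were rich in A and T. Their GC content was 21.8% at tin, 26.7% at the stronger how peak, 26.7% at nau, 21.8% at lbl and 33.7% at the weaker how peak. Over all 16 peaks of the 10 genes it ranged between 21.8% and 55.45%, with a median of 33.2%, against a median of 31.7% over the 7534 conservative peaks.

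**Figure D1:**
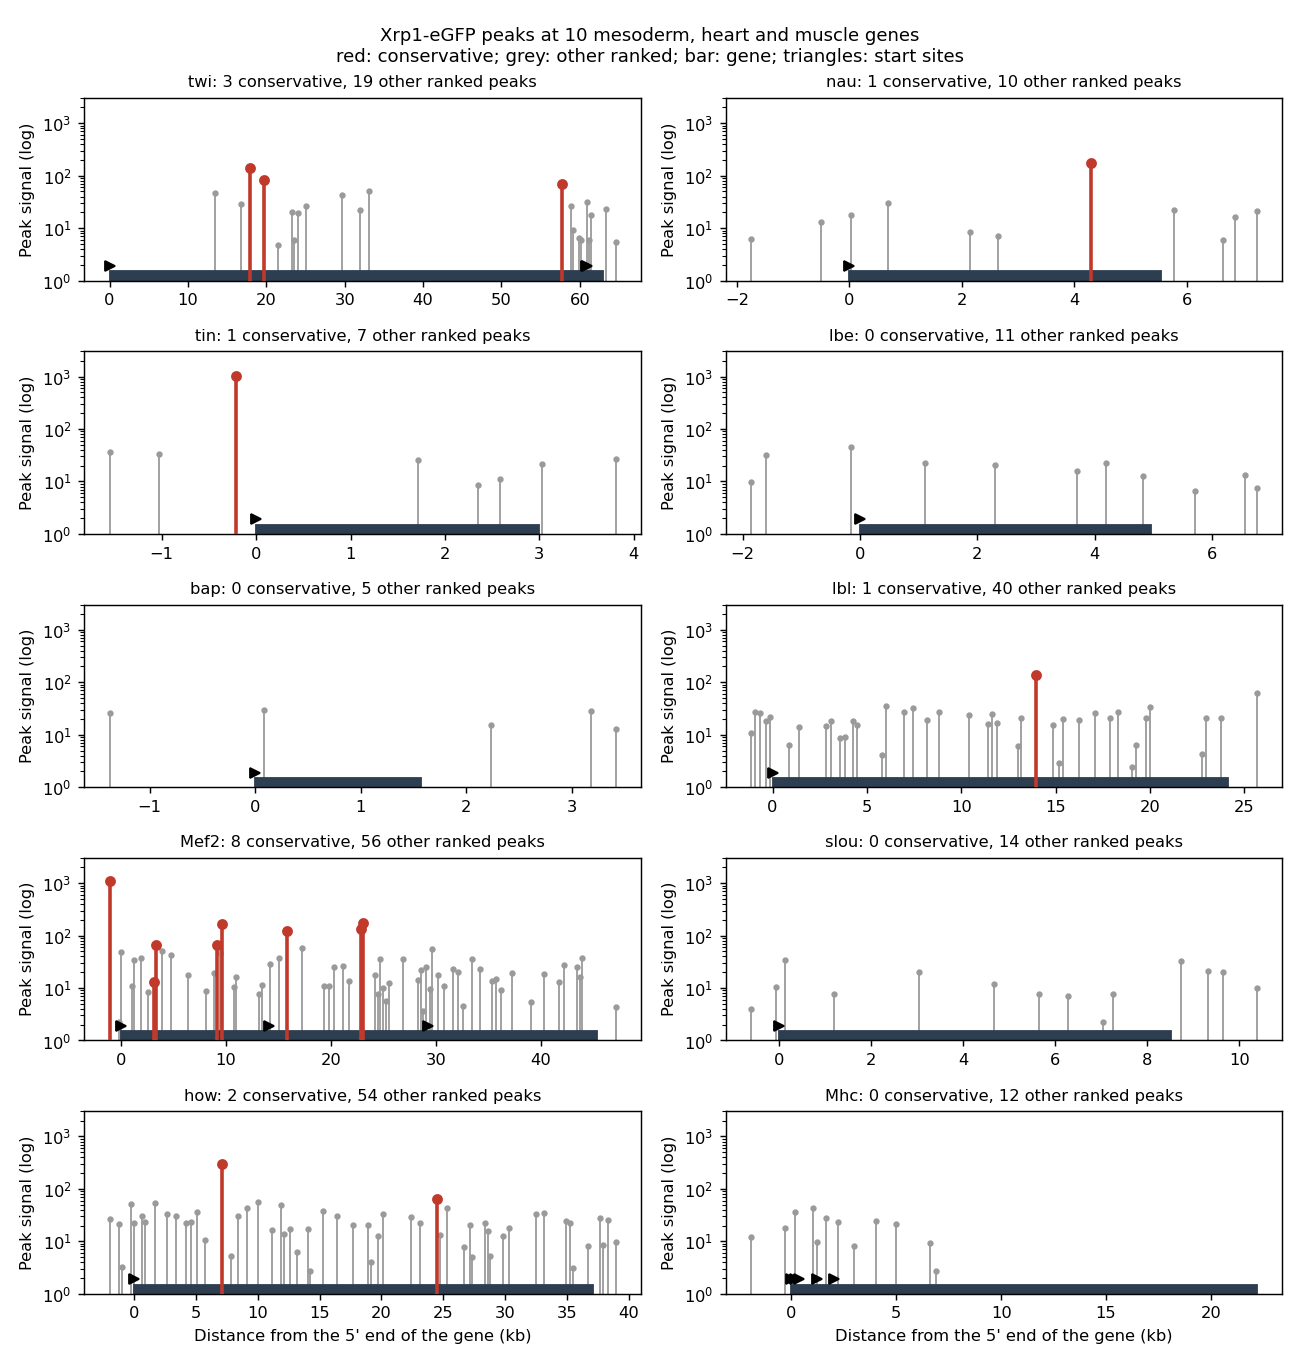
Peak signal (log axis) against distance from the 5' end of each gene in kb, 1 panel per gene, with conservative peaks in red, the other ranked peaks in grey, the gene as a dark bar and its start sites as triangles. The tall peaks of tin (1006) and Mef2 (1120) stand before the 5' end of the gene, while the conservative peaks of how, nau, lbl and twi lie inside the bars and bap, lbe, slou and Mhc show grey peaks only.

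The gene twi encodes Twist, the basic helix-loop-helix factor that starts mesoderm development. Its annotated span, chr2R:22985374-23048325 on the plus strand, covers 62.95 kb because 1 of its transcripts starts far upstream, whereas the other 2 are compact (23046108 to 23048325, 2.218 kb). The span held 3 conservative and 19 other ranked peaks. The conservative peaks had signals of 138.9 (23003063-23003426, rank 3248), 82.5 (23004882-23005245, rank 5746) and 68.6 (23042972-23043335, rank 6653).

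All 3 twi peaks lay in the intron of the long transcript, none of them within 500 bp of a twi start site. The closest, at 68.6, was 2954 bp upstream of the start of a compact transcript and 211 bp upstream of the start of CG42741, while the peaks at 138.9 and 82.5 were nearest to CG9896, at 4361 and 6180 bp. The strongest of the other ranked peaks, at 23018231-23018594, had a signal of 51.4 and also lay inside CG42741. Replicate 1 gave the peak at 138.9 a signal of 95.1 and replicate 2 gave it 46.1, the peak at 82.5 had 48.2 in replicate 1 and 38.2 in replicate 2, and the peak at 68.6 had 40.02 in replicate 1 and 27.5 in replicate 2. All 3 were higher in replicate 1. With twi defined by its compact transcripts, a choice made after the data were seen, it had 0 conservative and 9 other ranked peaks, the highest at 31.4, and the count of genes with a conservative peak became 5 of 10.

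The gene tin encodes Tinman, the NK homeodomain factor required for the heart, and lies at chr3R:21378977-21381970 on the plus strand (2.994 kb, 1 start site). Its 1 conservative peak, at 21378596-21378934, had a signal of 1006 and rank 101 of 7534. The summit was 209 bp upstream of the tin start site, which made tin the 1 gene of the 10 with a conservative summit within 500 bp of its own start, where 3234 of 13945 protein-coding genes (23.2%) had one. Replicate 1 gave the peak a signal of 657 and replicate 2 gave it 352, and it stood at rank 102 of replicate 1's own thresholded list and at rank 99 of replicate 2's. The ranks were thus close although the signals differed by a ratio of 1.87. The other 7 ranked peaks of tin had signals between 8.44 and 35.8, and the strongest of them was 23 bp from a start site of the neighbouring gene mod(mdg4).

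The gene bap encodes Bagpipe, the NK homeodomain factor of the gut musculature, which Tinman activates, and lies downstream of tin at chr3R:21388880-21390449 (plus strand, 1.57 kb). It had 0 conservative and 5 ranked peaks, with signals between 12.99 and 29.6. The peak at 29.6 had its summit in the 5' UTR, 80 bp downstream of the bap start site. Replicate 1 gave it 10.4 and replicate 2 gave it 19.1, and its global irreproducible discovery rate (IDR), the share of irreproducible peaks expected among peaks ranked as well or better, was 0.541, where the conservative list holds peaks of at most 0.01.

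The gene Mef2 encodes the MADS-box factor that activates the genes of muscle differentiation, and spans 45.36 kb at chr2R:9913496-9958858 on the minus strand, with 3 start sites. It held 8 of the 16 conservative peaks, a number that 124 of the 13945 protein-coding genes (0.889%) reached or passed, and 56 other ranked peaks. That share takes no account of gene length, and the median protein-coding gene spans 2.166 kb. The number depended on the list: 4 peaks were at Mef2 in the thresholded list of replicate 2 alone, 5 in that of replicate 1 alone and 5 in the authors' second list of both. The strongest, at 9959725-9960093, had a signal of 1120 and rank 81. Replicate 1 gave it 707 (rank 84 of its own thresholded list) and replicate 2 gave it 408 (rank 73). Its summit was 1056 bp upstream of the Mef2 5' end, yet it also lay inside Pal1, the neighbouring gene on the other strand that encodes an enzyme of peptide amidation, and 164 bp upstream of a Pal1 start site. Which of these genes the peak belongs to was not tested.

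Inside Mef2 lay 7 weaker conservative peaks, 6 in introns and 1 in a 5' UTR. The intronic peak at 9935665-9935797 had a signal of 172.7 (rank 2469), with 121 in replicate 1 and 43.0 in replicate 2, the widest ratio among the 16 peaks, at 2.83. The intronic peak at 9949194-9949288 had 166.8 (rank 2587), with 72.4 in replicate 1 and 100.5 in replicate 2. It was the 1 peak of the 16 that was higher in replicate 2.

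The intronic peak at 9935974-9936075 had a signal of 132.4 (rank 3450), with 57.4 in replicate 1 and 33.9 in replicate 2. The peak in the 5' UTR, at 9942816-9943179, had 120.2 (rank 3886), with 65.7 in replicate 1 and 52.9 in replicate 2, and its summit was 1766 bp downstream of a Mef2 start site. The intronic peak at 9949538-9949901 had 66.7 (rank 6758), with 44.0 in replicate 1 and 24.5 in replicate 2. These 3 were thus higher in replicate 1, by ratios below 2. The last pair, at 9955313-9955676 (65.6, rank 6817) and 9955515-9955878 (13.3, rank 7340), overlapped, with summits 202 bp apart, and both were matched to the same peak of each replicate, at 49.1 in replicate 1 and 32.6 in replicate 2. They therefore rest on 1 observation per replicate, and merging overlapping peaks left 15 regions in place of 16 peaks. The strongest ranked peak of Mef2 outside the conservative list had a signal of 56.8, in an intron 3152 bp downstream of a start site, and a global IDR of 0.102.

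The gene how encodes Held out wings, an RNA-binding protein of the STAR family needed in muscles and tendon cells, and spans 37.13 kb at chr3R:22042191-22079321 on the plus strand. It had 2 conservative peaks, both in introns, and 54 other ranked peaks. The peak at 22049194-22049384 had a signal of 294 (rank 1175), with 201 in replicate 1 and 91.0 in replicate 2, and lay 7093 bp downstream of the how start site. The peak at 22066511-22066874 had 64.9 (rank 6853), with 32.9 in replicate 1 and 29.8 in replicate 2, and lay 24502 bp downstream, nearer to the start of CG13408 at 13689 bp. The first was the third strongest peak of the 10 genes, and below the second there was only the Mef2 peak at 13.3. The strongest of the other ranked peaks had a signal of 55.99 and a global IDR of 0.0492, in an intron 10012 bp downstream of the start site. Just outside the window stood another conservative peak, 2533 bp upstream of the how start site (22039594-22039737, signal 238.9, rank 1567).

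The gene nau encodes Nautilus, the fly's member of the MyoD family of muscle regulators, and lies at chr3R:23712814-23718357 on the minus strand (5.544 kb). Its 1 conservative peak, at 23713889-23714252, had a signal of 175.7 (rank 2412), with 109.9 in replicate 1 and 75.4 in replicate 2. The summit was in an intron, 4286 bp downstream of the nau start site, and was nearer to the start of CG10300, at 2544 bp. The strongest of the other 10 ranked peaks had a signal of 30.3 and a global IDR of 0.466, in coding sequence 694 bp downstream of the nau start. Between 3069 and 4650 bp from the ends of nau lay 3 more conservative peaks, with signals of 273.1, 87.6 and 293.7, of which the first was 413 bp from the start of CG10301 and the third was 324 bp from the start of CG10365. These peaks are near nau but outside the rule. At twi, the nearest peak outside it had a signal of 69.3, 4762 bp downstream, and inside it the summits farthest from a gene were those of tin (209 bp) and Mef2 (1056 bp).

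The Ladybird homeodomain factors, encoded by lbe and lbl, and Slouch, the NK homeodomain factor encoded by slou, give identity to subsets of muscle founder cells, and the Ladybird factors also to heart cells. Of these 3 genes lbl had 1 conservative peak, and lbe and slou had 0. The lbl peak, at 21419978-21420341, had a signal of 136.7 (rank 3325), with 77.9 in replicate 1 and 55.3 in replicate 2. It lay in an intron of the gene, which spans 24.16 kb at chr3R:21409979-21434133 on the minus strand, and 13973 bp downstream of its start site, with the start of CheB93b nearer at 11037 bp. The other 40 ranked peaks of lbl had signals of at most 62.3, and the one at 62.3 (21408278-21408641), downstream of lbl and 663 bp from the start of CheB93b, had a global IDR of 0.0147.

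The gene lbe, at chr3R:21441577-21446537 on the minus strand (4.961 kb), had 11 ranked peaks with signals between 6.61 and 46.2. The strongest had its summit 159 bp upstream of the lbe start site, with 22.8 in replicate 1, 29.5 in replicate 2 and a global IDR of 0.0489. It was thus higher in replicate 2, and would count as a call at a global IDR of 0.05 but not at 0.01. The gene slou, at chr3R:21548661-21557182 on the minus strand (8.522 kb), had 14 ranked peaks between 2.28 and 34.5. The strongest lay in the 5' UTR, 133 bp downstream of the start site, with 18.4 in replicate 1, 14.2 in replicate 2 and a global IDR of 0.188.

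The gene Mhc encodes the muscle myosin heavy chain and spans 22.2 kb at chr2L:16766566-16788766 on the plus strand, with 5 start sites. It had 0 conservative and 12 ranked peaks, with signals between 2.73 and 44.0. The strongest had 23.1 in replicate 1, 19.2 in replicate 2 and a global IDR of 0.063, and its summit was in an intron, 167 bp upstream of an internal start site. In each of the 4 genes without a conservative peak, the strongest ranked peak therefore lay within 167 bp of a start site of the gene, and its signal was between 29.6 and 46.2. The distance of 167 bp was read from these same peaks, and the share over other genes is not given here. The pattern is therefore not read as particular to these genes.

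**Figure D2:**
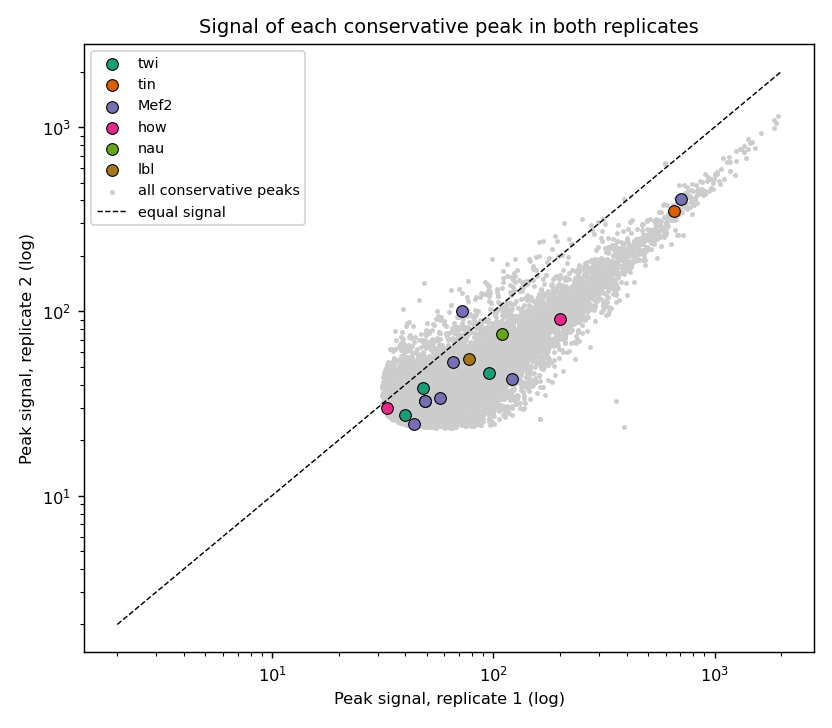
Signal of each conservative peak in replicate 1 (x) and replicate 2 (y), both on log axes, with the 16 peaks of the 6 genes in colour, all 7534 conservative peaks in grey and equal signal as a dashed line; the 2 peaks of Mef2 that share their replicate peaks fall on 1 point. Of the 16 peaks, 15 lie below the line, and the peak of tin and the strongest peak of Mef2 stand far to the upper right.

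The authors' signal at these genes was mostly higher in replicate 1, as over the whole list. The signal in replicate 1 was higher in 15 of the 16 peaks, against 6875 of all 7534 conservative peaks (91.3%), and the ratio of replicate 1 to replicate 2 had a median of 1.51 at the 10 genes (0.721 to 2.83), against 1.76 over all. Since the scaling of the signal to depth is not stated, the ratio compares the authors' values and not amounts of bound protein. In the thresholded list made from replicate 1 alone, 11 of the 16 peaks were overlapped by a peak (68.75%, against 81.7% of all conservative peaks), and in that of replicate 2 it was 9 of 16 (56.25%, against 54.9%). Each of the 6 genes had a peak in both of these lists, also where summits had to lie within 100 bp of each other. At twi this was the peak at 82.5, while its strongest peak, at 138.9, was not overlapped in the list of replicate 2. The 6 genes are those with a conservative peak, which already asks that the replicates rank it alike. Their presence in both lists is therefore not separate support, and the share over all genes is not given here.

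**Figure D3:**
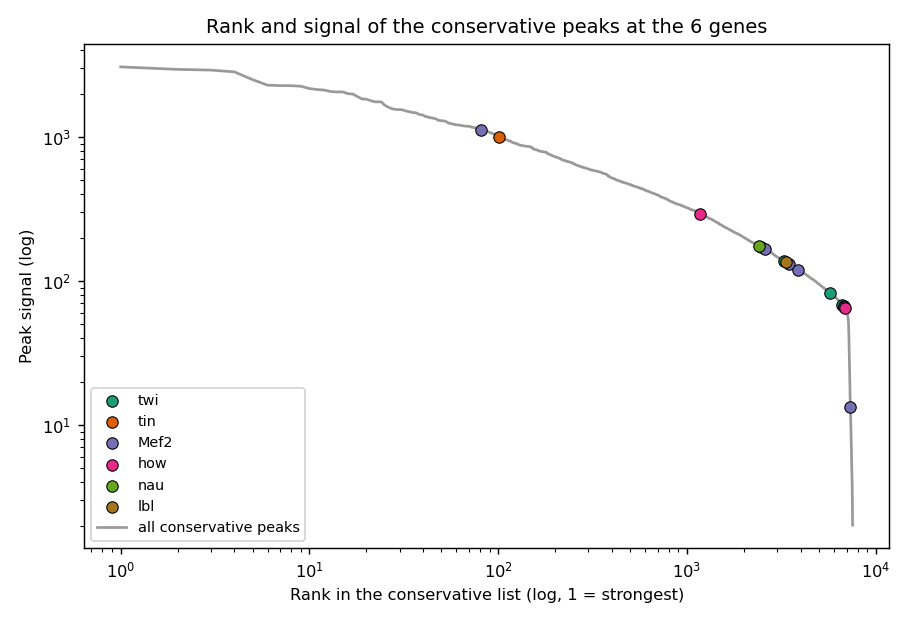
Peak signal against rank in the conservative list, both on log axes, with the 16 peaks of the 6 genes in colour on the grey curve of all 7534 conservative peaks. Mef2 and tin stand at ranks 81 and 101, how follows at 1175, and the other 13 lie at rank 2412 or lower on the list.

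By signal the 16 peaks were spread over the whole list. Their median was 134.5 (13.3 to 1120), against 122.9 over all conservative peaks, and 9 of the 16 were above 122.9. Between how, at 294, and the peaks of tin and Mef2, at 1006 and 1120, there was none. In replicate 1's signal the strongest peaks of the genes kept the order Mef2, tin, how, nau, twi, lbl, and in replicate 2's the order was Mef2, tin, how, nau, lbl, twi, so that lbl and twi changed places between the replicates.

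By position, 13 of the 16 peaks lay in introns of the gene, 2 upstream and 1 in a 5' UTR. The share in introns over all conservative peaks is not given here, so the count is not read as particular to these genes. A start site of any gene was within 500 bp of the summit in 3 of 16 peaks (18.75%), at tin, Pal1 and CG42741, against 2977 of 7534 conservative peaks (39.5%). These genes are also long, with a median length of 15.36 kb, against 2.166 kb for protein-coding genes, and the part of length in the counts was not tested. Of the 5 genes of 10 kb or longer, 4 had a conservative peak (twi, Mef2, how and lbl, not Mhc), against 1317 of 1977 protein-coding genes of that length (66.6%), and of the 5 shorter ones 2 had one (tin and nau, not bap, lbe or slou), against 4473 of 11968 (37.4%). With twi defined by its compact transcripts, 4 of the 10 genes were of 10 kb or longer, and 3 of these had a conservative peak. The split by length was added after the data were seen.

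The ranked list holds 90143 peaks, most of them far from the threshold, and 244 of them lay at the 10 genes. The 228 that were not conservative had a median signal of 19.4 (2.24 to 62.3), against 17.7 over all non-conservative ranked peaks, and 4 of the 228 had a global IDR of at most 0.05. The same share over all non-conservative ranked peaks is not given here, so the 4 are not read as many or few. Per kb of gene and flanks, ranked peaks were densest at lbl (1.46), how (1.36) and Mef2 (1.30) and sparsest at twi (0.329) and Mhc (0.458), against a median of 0.945 over protein-coding genes. Among protein-coding genes these densities stood between percentile 25.6, at twi, and percentile 84.1, at lbl. The low density of twi holds only for its annotated span, which rests on 1 long transcript. With twi defined by its compact transcripts, its density was 1.447, between those of lbl and how. In Mhc all ranked summits lay at or before position 16773475, in the 5' part of the gene, as the plot of the loci shows. The authors' second thresholded list of both replicates held 14 peaks at the 10 genes, of which 3 were not conservative: 1 at Mef2 (9954712-9955075), 1 at lbl (the peak 663 bp from CheB93b) and 1 at twi (23034813-23035176).

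The genes tin, bap, lbl, lbe and slou lie in 1 stretch of 3R, the cluster of NK homeobox genes that also holds C15. With flanks of 2000 bp the cluster ran over 182.2 kb with 13 protein-coding genes and held 5 conservative and 213 ranked peaks in all. That is 2.74 conservative peaks per 100 kb, against 5.33 over the whole arm. Besides the peaks of tin and lbl, these were a peak of 108.3 at 299 bp upstream of Fancm, one of 133.9 whose nearest start was that of lncRNA:CR44032 at 5681 bp, and one of 269.7 at 558 bp upstream of sp3. Of the 5 homeobox genes named, only tin thus had a conservative summit within 500 bp of its start, and C15 had no conservative peak in its window.

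Of 10 short words searched on both strands within 50 bp of the summits, 3 were found at the 16 peaks. The word TGATGNAA, the core of the composite element bound by C/EBP and ATF family bZIP factors, was in 1 peak, that of Mef2 at 9949194-9949288, starting 40 bases before the summit, and in 1.38% of all conservative peaks. CATATG was in 1 peak, that of tin, starting 37 bases after the summit, and in 4.39% of all. GAGAG was in 3 peaks, 1 each of Mef2, lbl and twi, and in 10.2% of all; in the Mef2 peak it came as a run of overlapping copies. The words TTGCGCAA and the looser TTGCNNAA, which includes it (C/EBP), TGACGTCA (CRE), TGANTCA (AP-1), CACGTG (E-box), TCAAGTG (Tinman) and TATCGATA (DREF) were in 0 of the 16, and in between 0.0929% and 8.999% of all. A match says only that these letters are in the window.

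For the 3 genes with the strongest peaks, the protein-coding genes most like them were sought among those with the same number of conservative peaks, by the distance between the log2 signals of the 2 replicates at the strongest peak. For Mef2, with 35 other genes of 8 peaks, these were CG12912 (distance 0.162), whose peak was nearest to the start of Hr3, and PAN3 (0.213). For tin, with 3411 genes of 1 peak, they were mRpL46 and CG13933, which share 1 peak (0.0794), nearest to the start of PolD2. For how, with 1363 genes of 2 peaks, they were CG17002 and CG30156, which also share 1 (0.0035), nearest to the start of CG30156. The measure rests on 2 replicates and on no other property of the genes.

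**Figure D4:**
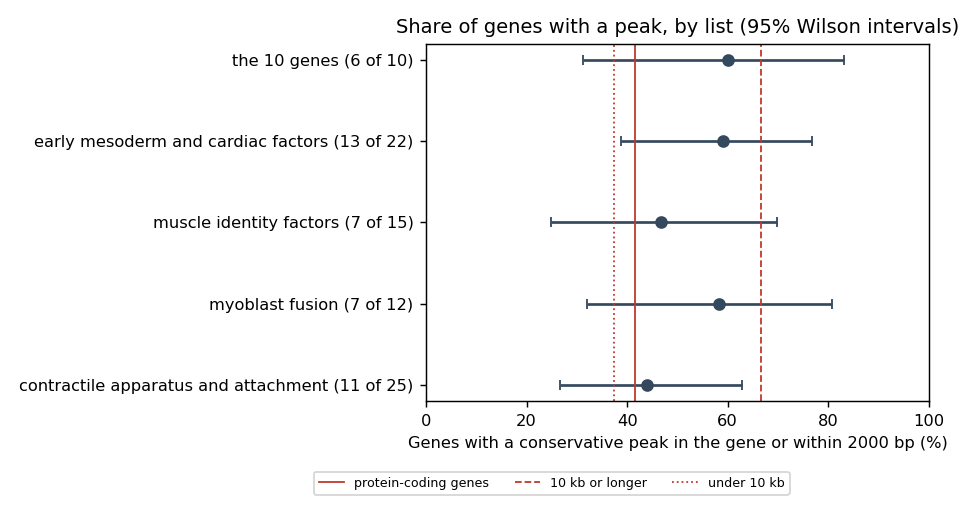
Share of genes with a conservative peak in the gene or within 2000 bp, in percent, for the 10 genes and 4 further lists, with 95% Wilson intervals as bars and the shares of all protein-coding genes (41.5%), of those of 10 kb or longer (66.6%) and of those under 10 kb (37.4%) as lines. The line of all protein-coding genes falls within the interval of each of the 5 lists.

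Genes of the same tissues outside the 10 were counted by the same rule. Of 76 listed symbols 74 matched the annotation, and 38 of these (51.4%) had a conservative peak, with 23 of 38 (60.5%) among those of 10 kb or longer and 15 of 36 (41.7%) among the shorter ones. These shares stand beside 41.5%, 66.6% and 37.4% of protein-coding genes. Among the early mesoderm and cardiac factors it was 13 of 22 (59.1%), with the strongest peaks at zfh1 (672), a zinc finger homeodomain factor, at tup (449), a LIM homeodomain factor, and at Doc2 (423), a T-box factor. The tup peak was downstream of the gene and 146 bp from the start of CG10602, and the Doc2 peak was downstream too and nearest to CG5194.

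Among the muscle identity factors 7 of 15 had a peak (46.7%), led by org-1 (863, 355 bp upstream of its start), a T-box factor, sr (456), the factor of tendon cells, and Dr (269), a homeodomain factor. With rank 141, org-1 came closest to tin and Mef2. Among the genes of myoblast fusion it was 7 of 12 (58.3%), led by kirre (590), an adhesion protein of founder cells whose span of 394.1 kb held 27 conservative peaks, mbc (484), an activator of Rac, and Rac1 (423), whose peak was nearer to the start of scf. Among the genes of the contractile apparatus and its attachment it was 11 of 25 (44.0%), led by sls (424, 275 bp upstream of a start site), which encodes a titin-like protein, and by mew (383) and if (356), which encode integrin alpha subunits. The mew peak was nearest to the start of CG32639, at 2275 bp. The gene families of the sarcomere were divided. Act57B, Act79B and Act88F, which encode actins, had no conservative peak, and Act87E, another actin gene, had 3. Mlc1, for a myosin light chain, had none and Mlc2 had 1, downstream of the gene and 380 bp from the start of Rsod. The tropomyosin gene Tm2 (5.005 kb) had none while Tm1 (30.56 kb) had 1. Of the troponin genes, up, wupA and TpnC41C had none, TpnC47D had 1 (72.1) and TpnC73F had 2, the stronger at 81.5. The peak at 81.5 was nearer to the start of rogdi, at 1565 bp, than to that of TpnC73F, at 1787 bp.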

How the data were processed

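Peak lists of 2 biological replicates of 1 group were analysed. The authors aligned reads to dm6, called peaks with a control and applied the IDR procedure, per the notes deposited with the samples. The sources used here do not give the aligner, the caller or any version. The signal values were deposited by the authors with no statement of how they scale to depth. The deposited IDR column holds −log10 of the global IDR. The conservative list (7537 peaks, 7534 on the arms) holds no peak with a global IDR above 0.01, and it lacks 150 ranked peaks that meet the same limit, none of them at the 10 genes. In the ranked list, the signal of each replicate was tied to its sample by an exact match to that replicate's own ranked list. The files hold no reads, so the depth is unknown, and intervals cover counting error only. The age label gives hours that do not match the source name, which was followed.

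Genes, transcripts and start sites came from Ensembl release 115, and sequence from RefSeq Release 6, the dm6 assembly. The 10 genes, the further lists and the words were chosen with earlier results of these data known, so the counts are descriptions and no test was run. Named are all 10 genes with every conservative peak and the strongest other ranked peak, genes with a nearer start site, the 3 genes of each further list with the strongest peak, and the nearest matches of the 3 strongest; the actin, myosin light chain, tropomyosin and troponin genes were named after their values were seen. Alternatives changed the window, the list, the IDR threshold, the replicates, the overlap rule, the distance to a start site and the words' window; the compact twi and the length classes were added after the data were seen. Peaks outside the arms were left out. The p column was not used. Scripts ran under Python 3.11.15 with pandas 2.3.3, NumPy 2.4.6, matplotlib 3.10.9 and SciPy 1.17.1, and the assignment of peaks to genes was tested on simulated data.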

Additional observations from a re-analysis of the deposited data

How the results depend on the processing

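The count of genes with a conservative peak, 6 of 10, was between 5 and 7 under the alternatives tried. It was 5 with the summit inside the gene (tin lost) and, by a choice made after seeing the data, with the compact transcripts of twi, and 7 with ranked peaks up to a global IDR of 0.05 (lbe gained). The share of all annotated genes, 38.5%, was 13.5% with the summit inside the gene and 47.9% up to a global IDR of 0.05. It was highest, at 53.6%, in the widest window tried, where the count stayed at 6 of 10. The further listed genes with a peak, 38, were 25 with the summit inside the gene and 49 up to a global IDR of 0.05. The 16 conservative peaks were 9 without replicate 1 and 12 without replicate 2, counted in the other replicate's own list. They were between 13 and 21 under the other alternatives. Replicate 2's own list was shorter, with 4401 peaks on the arms, against 7520 in replicate 1's and 7534 in the conservative list. The share of all annotated genes with a peak was 26.9% without replicate 1 and 38.2% without replicate 2. Mef2 accounts for most of the drop from 16, with 8 peaks, 4 without replicate 1 and 5 without replicate 2. The share of these peaks within 500 bp of a start site of the gene, 6.25%, was 18.75% within 2000 bp and also 18.75% with the start sites of any gene. Within 100 bp of the summits, TTGCNNAA was in 2 peaks (15.98% of all conservative peaks), CATATG in 2 (7.86%), TCAAGTG in 1 (3.57%) and GAGAG in 6 (22.9%). Within 25 bp, TGATGNAA and CATATG were in 0, and in 0.717% and 2.06% of all. The depth of the replicates is unknown, so the absence of a conservative peak at bap, lbe, slou and Mhc does not show that Xrp1 was absent there. No paired analysis was possible because the design has a single group.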
